A study of Mus musculus with 14 samples.

Results

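The Schlafen (Slfn) genes are a family of growth-regulating and interferon-inducible genes that lie side by side on mouse chromosome 11. All rows whose gene symbol was Slfn1, Slfn2, Slfn3, Slfn4, Slfn5, Slfn8 or Slfn9 were taken from the deposited tables, which gave 7 of 7 members in each table, of 14732 genes listed without IFN-beta and 12843 genes listed with it. The RNA came from splenic CD8 T cells of C57BL/6 mice, sorted as naive cells (CD62Lhi CD44lo) and activated in culture for 6 h. All 14 libraries shared anti-CD3, bound to the plate at 1 µg/mL, and anti-CD28, added in solution at 1 µg/mL, antibodies that stand in for antigen and costimulation. Without further addition there were 3 wild-type libraries and 3 labelled Morrbid-/-, and with 20 ng/mL recombinant IFN-beta there were 4 of each. Morrbid is a long noncoding RNA gene, and the labels used here do not describe the deleted segment, the animals' age, or whether replicates were separate animals. Every p-value therefore measures only how far these samples spread, and that spread may be technical.

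Schlafen proteins fall into a short group (Slfn1 and Slfn2), an intermediate group (Slfn3 and Slfn4) and a long group with a helicase-like part (Slfn5, Slfn8 and Slfn9). Slfn2 is known for keeping T cells quiescent: mouse T cells without working Slfn2 enter a semi-activated state and die, and the protein binds transfer RNAs and shields them from cleavage during activation. Type I interferon is known to raise several other members through the receptor IFNAR, the kinases JAK1 and TYK2, and a transcription factor complex with IRF9, which binds the interferon-stimulated response element (ISRE).

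The genotype label was checked on the Morrbid transcript, listed as Gm14005. Without IFN-beta it stood at 1.79, 4.16 and 1.53 normalized counts in the wild-type libraries and at 7.10, 5.24 and 7.16 in those labelled Morrbid-/-, so it was not lower under the Morrbid-/- label (limma log2 difference 1.17, SE 0.56, adjusted p = 0.811). Its mean lay under the 10 normalized counts required of every other gene for testing, and it was kept in the test as the check of the label. With IFN-beta it was not analysed here, and all directions below refer to libraries labelled Morrbid-/-. Whole reads recovered from the values numbered 1747634 to 2963149 per library without IFN-beta and 5788070 to 7355337 with it. The 5 CD8 T cell markers were listed in every library, while Cd4 and the B cell genes Pax5 and Ms4a1 were in neither table. The B cell genes Cd79a and Cd79b were in both, with label means up to 2.35 normalized counts without IFN-beta. With IFN-beta Cd79a averaged 11.6 in wild type and 16.9 under the Morrbid-/- label (limma adjusted p = 0.413), and Cd79b 4.22 and 3.42. The part of B cells in the Schlafen values was not tested. In bulk RNA, fewer cells of a type and less RNA per cell cannot be told apart.

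The members span a cluster of 10 Slfn genes over 344 kb at chr11:82942341-83286726 (RefSeq, GRCm38.p6). Slfn5 lies at chr11:82951349-82964850, followed by Slfn9 (chr11:82974316-82991830), Slfn8 (chr11:83002125-83020810), Slfn2 (chr11:83065112-83070678), Slfn1 (chr11:83116820-83122670), Slfn4 (chr11:83175172-83190216) and Slfn3 (chr11:83191330-83215154). Slfn10-ps, a pseudogene between Slfn8 and Slfn2 at chr11:83028123-83040533, was listed in both tables, and the antisense transcript Slfn5os was listed with IFN-beta only. Slfn14 was not analysed here.

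Promoter windows of RefSeq, 250 bases before to 50 bases after each start, were found for 7 of 7 members and searched on both strands for the ISRE core, spelled as GAAA, any 2 bases and GAAA. The core occurred in Slfn5, Slfn8 and Slfn9, the 3 long members, and in none of the windows of Slfn1, Slfn2, Slfn3 and Slfn4. Of all 32851 windows, 1131 (3.44%) held it. The 250 bases before the start are printed for the 3 genes with the core and for Slfn2 as the quiescence-linked member without it, in the direction of the gene, with the core in capitals.

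Slfn5: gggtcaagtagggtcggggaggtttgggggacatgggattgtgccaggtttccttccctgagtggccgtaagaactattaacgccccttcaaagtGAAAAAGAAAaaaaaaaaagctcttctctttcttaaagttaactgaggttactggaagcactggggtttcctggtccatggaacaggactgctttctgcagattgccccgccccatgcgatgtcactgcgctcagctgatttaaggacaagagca

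Slfn8: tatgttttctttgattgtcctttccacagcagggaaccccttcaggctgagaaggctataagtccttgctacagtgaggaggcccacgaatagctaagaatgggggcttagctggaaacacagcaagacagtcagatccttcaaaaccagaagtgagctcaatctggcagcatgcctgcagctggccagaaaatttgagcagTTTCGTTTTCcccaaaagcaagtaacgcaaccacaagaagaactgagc

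Slfn9: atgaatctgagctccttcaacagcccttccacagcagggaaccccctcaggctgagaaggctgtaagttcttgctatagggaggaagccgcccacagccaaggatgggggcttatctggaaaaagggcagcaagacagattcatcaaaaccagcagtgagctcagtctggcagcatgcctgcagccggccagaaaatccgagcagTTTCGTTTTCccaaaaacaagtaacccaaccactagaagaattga

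Slfn2: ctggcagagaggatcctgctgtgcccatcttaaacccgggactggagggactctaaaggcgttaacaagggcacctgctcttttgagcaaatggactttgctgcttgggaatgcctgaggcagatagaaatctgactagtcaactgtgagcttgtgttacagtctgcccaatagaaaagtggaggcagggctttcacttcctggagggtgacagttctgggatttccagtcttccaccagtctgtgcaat

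These stretches are chr11:82951852-82952101 on the + strand for Slfn5, chr11:83020811-83021060 on the - strand for Slfn8, chr11:82991831-82992080 on the - strand for Slfn9 and chr11:83064862-83065111 on the + strand for Slfn2 (GRCm38.p6). In Slfn5 the core reads GAAAAAGAAA on the gene's strand, from base -155 to -146 before the start. In Slfn9 and Slfn8 the same letters, TTTCGTTTTC, mark it on the opposite strand, from -45 to -36 and from -48 to -39. Slfn8 has an additional window with a later start, in which the same core lies further from the start. The core of the gamma-activated site (TTC, any 3 bases and GAA), which reads the same on both strands, was in no member's window and in 8.30% of all windows. A match is a run of letters, not a measured binding site.

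The family's place in the transcriptome differed between the stimulations, and the long members accounted for most of it. The 7 members together took 0.0610% to 0.0819% of the recovered reads in the 6 libraries without IFN-beta, and 0.896% to 0.996% in the 8 libraries with it. Slfn2 made up 35.5% to 50.1% of those family reads without IFN-beta and 6.03% to 8.57% with it. Slfn5, a long nuclear member, went the other way, from 2.00% to 2.99% without IFN-beta to 46.9% to 50.5% with it. The tables were normalized separately and their libraries differ in depth, so levels with and without IFN-beta are set side by side as RPM (reads per 1000000 reads) over the 12539 genes in both tables and were not tested.

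In wild-type libraries Slfn5 averaged 17.9 RPM (SD 3.17, n = 3) without IFN-beta and 4819 (SD 155, n = 4) with it, a ratio of means of 270. Slfn8 averaged 60.0 (SD 14.3) and 2083 (SD 43.3) RPM, a ratio of 34.7. The ratio was 16.4 for Slfn9, another long member, and 16.2 for Slfn3, an intermediate one. Slfn1, the founding short member, which slows the growth of T cells when overexpressed, averaged 276 (SD 19.1) and 1817 (SD 44.6) RPM, a ratio of 6.59. Slfn2 had the smallest ratio of these 6 members, 2.19, from 321 (SD 50.7) to 704 (SD 86.2) RPM. Even for Slfn2 the lowest library with IFN-beta was 1.60 times the highest without it. In libraries labelled Morrbid-/- the ratios were 252 for Slfn5, 25.9 for Slfn8, 13.2 for Slfn9, 9.93 for Slfn3, 5.06 for Slfn1 and 2.24 for Slfn2, the same order as in wild type. Slfn4, a member best known from myeloid cells, rested on 1 to 3 reads per library without IFN-beta and on 42 to 88 reads with it, so no ratio is given.

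**Figure D1:**
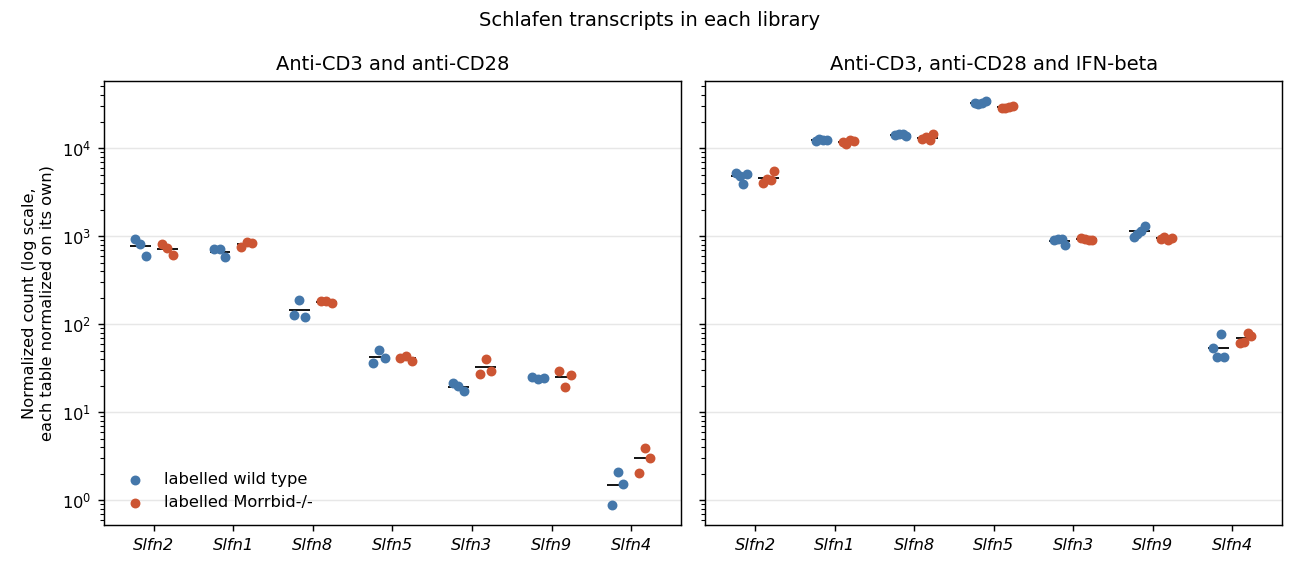
Normalized counts (vertical log axis) of the 7 Schlafen members in every library, in the table without IFN-beta (left) and the table with it (right), each normalized on its own; points are libraries and short lines are group means. Without IFN-beta Slfn2 and Slfn1 stand above the other members, and with IFN-beta Slfn5 is the highest, at 28561 to 33995.

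Levels can be compared between genes only per length, so the RPM values were divided by the length of each gene's merged exons (GENCODE M21) in kb. Without IFN-beta the wild-type order was Slfn2 at 193, Slfn1 at 148, Slfn8 at 14.7, Slfn5 at 2.82, Slfn3 at 2.38, Slfn9 at 1.70 and Slfn4 at 0.158 RPM per kb. Only the neighbours Slfn5 and Slfn3 overlapped between libraries in that order. With IFN-beta the wild-type order was Slfn1 at 975, Slfn5 at 762, Slfn8 at 509, Slfn2 at 423, Slfn3 at 38.4, Slfn9 at 28.0 and Slfn4 at 2.01, with no overlap between neighbours. Under the Morrbid-/- label without IFN-beta, Slfn1 (189) and Slfn2 (185) overlapped, and the order of Slfn3 (4.12) and Slfn5 (2.78) was the other way round. Under the Morrbid-/- label with IFN-beta the order was as in wild type, and Slfn8 (489) overlapped with Slfn2 (414). Per length, therefore, Slfn2 went from the highest wild-type member to the fourth, while Slfn9 and Slfn4 stayed at the low end.

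**Figure D2:**
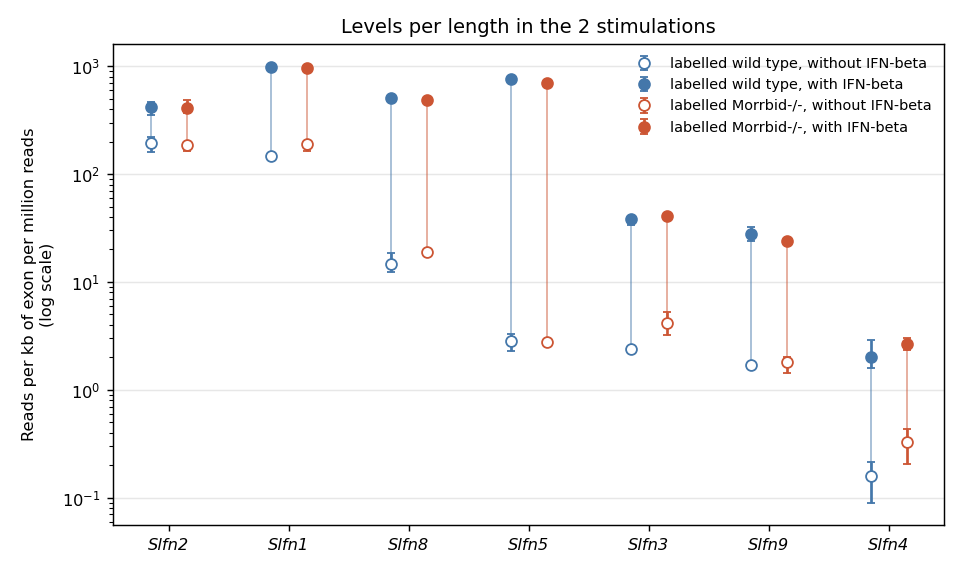
Mean RPM per kb of exon (vertical log axis) of each member in the 4 groups; open points are without IFN-beta (n = 3), filled points with it (n = 4), bars run from the lowest to the highest library and lines join the 2 stimulations of a genotype. The line is shortest for Slfn2 and longest for Slfn5.

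Near-identical stretches can move reads between members, since how such reads were counted is not given in the sources used here. Of all 75-base words in each gene's transcripts, the read length here, none of Slfn1's and 1.70% of Slfn2's occurred in another gene. The share was 6.99% for Slfn8 and 5.90% for Slfn9, which share words with each other and with Slfn10-ps. It was 11.5% for Slfn10-ps, 3.12% for Slfn4 and 6.78% for Slfn3, whose words recurred in Gm11427 (3.73%) and Slfn4 (1.32%) among others. Slfn5 shared 8.22%, most of it (6.59%) with its antisense transcript Slfn5os, and the strand setting of the counting is not given. Slfn5os itself was listed at 2.34 to 14.2 normalized counts with IFN-beta, against at least 28561 for Slfn5.

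Whether the Morrbid-/- label went with a different Schlafen level was asked first without IFN-beta. No member passed the test in that setting: of the 6 members tested by limma, 0 were higher and 0 lower at an adjusted p under 0.05, where 0.635% of all 9291 tested genes passed (0.538% higher, 0.0969% lower). At an unadjusted p under 0.05 there were 3 members, Slfn1, Slfn3 and Slfn8, all with higher means under the Morrbid-/- label, and edgeR and DESeq2 on the recovered reads also called 0. The count depended on the fit. A single limma fit of all 14 libraries, which pools the spread of both tables, called 1 of them, Slfn3. A limma fit with the replicate number as a block called Slfn1. Over all tested genes 6.12% had an unadjusted p under 0.05. The median log2 difference (Morrbid-/- minus wild type, on normalized count + 1) was 0.16 over the 6 members and -0.0061 over all tested genes.

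Slfn2, the quiescence-linked member, was at 920, 819 and 599 normalized counts in wild type and at 809, 732 and 611 under the Morrbid-/- label. The groups overlapped throughout, and replicate 3 was the lowest in both. The limma log2 difference was -0.11 (SE 0.13, 95% interval -0.37 to 0.16, adjusted p = 0.955).

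Slfn1 was at 705, 718 and 576 normalized counts in wild type and at 760, 854 and 840 under the Morrbid-/- label. Every Morrbid-/- library was above every wild-type library. Its log2 difference was 0.30 (SE 0.10, 95% interval 0.09 to 0.51), which did not pass in limma (adjusted p = 0.457, and 0.0186 to 0.996 over all settings run).

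Slfn3, an intermediate member, showed the same arrangement at a much lower level: 21.5, 19.8 and 17.6 normalized counts in wild type against 27.4, 40.6 and 29.7. The log2 difference was 0.69 (SE 0.26, 95% interval 0.15 to 1.23, limma adjusted p = 0.605). In one fit of all 14 libraries it passed (0.69, limma adjusted p = 0.00167), and over all settings run the adjusted p was 0.00167 to 1.00. That one fit assumes the same spread in both tables, while the SE of Slfn3 with IFN-beta was 0.07, so its adjusted p is too small. The Slfn3 values without IFN-beta rest on 19 to 31 reads per library. Groups without overlap were thus seen for 2 of the 6 members, both higher, where 5.54% of all tested genes had every Morrbid-/- library above every wild-type one.

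Slfn8 was at 127, 187 and 121 normalized counts in wild type and at 181, 182 and 174 under the Morrbid-/- label. Wild-type replicate 2 was above all Morrbid-/- libraries and the other 2 wild-type libraries below them. The log2 difference was 0.33 (SE 0.14, 95% interval 0.03 to 0.63, limma adjusted p = 0.764).

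The long members Slfn5 and Slfn9 overlapped between the labels without IFN-beta. Slfn5 was at 36.6, 51.0 and 41.3 normalized counts in wild type and at 41.6, 43.2 and 37.9 under the Morrbid-/- label (log2 difference -0.06, SE 0.21, limma adjusted p = 0.982). Slfn9 was at 25.0, 23.9 and 24.5 against 29.4, 19.6 and 26.6 (log2 difference 0.02, SE 0.26, limma adjusted p = 0.994). Slfn4, at 0.894 to 2.08 against 2.03 to 3.93 normalized counts, was below the mean of 10 required for testing. The pseudogene Slfn10-ps stood at 62.6, 61.4 and 68.8 normalized counts in wild type, and under the Morrbid-/- label at 45.6, 51.1 and 48.1, without overlap and opposite in direction to Slfn1 and Slfn3 (log2 difference -0.41, SE 0.18, limma adjusted p = 0.769).

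Marker sums of other cells also differed by label in the libraries without IFN-beta. The plasmacytoid dendritic cell list summed to 98.3 to 166 normalized counts in wild type and 66.9 to 84.9 under the Morrbid-/- label, without overlap. Most of that sum was Ccr9, a chemokine receptor that naive CD8 T cells also carry, with means of 118 and 63.3. It was the list's 1 tested gene and was lower (log2 difference -0.86, limma adjusted p = 0.0265), as were 0.0969% of all tested genes. Siglech, which defines these dendritic cells, was at 1.79 to 5.12 normalized counts over all 6 libraries. Siglech (means of 2.91 and 4.37) and Bst2, also of that list (6.28 and 8.67), had the higher mean under the Morrbid-/- label. The NK cell list summed to 532 to 623 against 443 to 498, also without overlap, nearly all of it from Klrd1, a lectin-like receptor that did not pass (-0.27, limma adjusted p = 0.535). Its defining gene Ncr1 was listed at 0 in every one of these libraries. The part of such cells in the Schlafen values and in those of the other interferon-induced genes was not tested.

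With IFN-beta, 2 of the 7 members tested passed, and both were lower under the Morrbid-/- label: Slfn5 and Slfn9. No member was higher in limma, edgeR or DESeq2, and 1, Slfn4, was higher at an unadjusted p under 0.05 in limma, where 24.4% of all tested genes had such a p in either direction. Over all 9964 tested genes, 10.1% passed in either direction, 5.25% higher and 4.84% lower, and the numbers higher and lower were 523 and 482. Rescaling to equal library totals changed that split to 730 and 344. The members' median log2 difference was -0.07, against 0.0015 over all tested genes.

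Slfn5 was at 32375, 31541, 32573 and 33995 normalized counts in wild type and at 28701, 28561, 29357 and 29848 under the Morrbid-/- label. All 4 Morrbid-/- libraries were below all 4 wild-type ones, and the mean was 0.893 times that of wild type. The log2 difference was -0.16 (SE 0.05, 95% interval -0.27 to -0.06, limma adjusted p = 0.0403). The call was close to the threshold. It was lost when any library other than Morrbid-/- replicate 4 was left out (limma adjusted p 0.0650 to 0.116, against 0.0317 without that one). On the recovered reads it passed in edgeR (adjusted p = 0.0251) and DESeq2 (adjusted p = 0.00803), while one fit of all 14 libraries gave the highest adjusted p, 0.228.

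Slfn9 was at 985, 1067, 1158 and 1312 normalized counts in wild type and at 917, 981, 907 and 962 under the Morrbid-/- label. The labels did not overlap, but the gap was small: the highest Morrbid-/- library (981) lay just under the lowest wild-type one (985). The mean was 0.833 times that of wild type, with a log2 difference of -0.26 (SE 0.07, 95% interval -0.41 to -0.10, limma adjusted p = 0.0294). Without wild-type replicate 4, the highest library, the difference was -0.18 (limma adjusted p = 0.105). The call was also lost without wild-type replicate 3 or Morrbid-/- replicate 1, 2 or 3 (limma adjusted p 0.0507 to 0.0837), and over all settings the adjusted p ran from 0.00492 to 0.181. Groups without overlap in this direction were seen for these 2 members of 7, against 7.6% of all tested genes.

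Slfn8, the long member between Slfn9 and Slfn2 on the chromosome, was at 13961, 14309, 14315 and 13822 normalized counts in wild type. Under the Morrbid-/- label it was at 12518, 13366, 12441 and 14337. Morrbid-/- replicate 4 was above all wild-type libraries and the other 3 below them (log2 difference -0.10, SE 0.05, limma adjusted p = 0.256).

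Slfn2 again overlapped with IFN-beta: it was at 5271, 4754, 3932 and 5108 normalized counts in wild type and 3986, 4408, 4297 and 5454 under the Morrbid-/- label. The log2 difference was -0.07 (SE 0.08, 95% interval -0.25 to 0.10, limma adjusted p = 0.654). Slfn1 was at 12098, 12662, 12248 and 12193 against 11589, 11167, 12221 and 12093, also overlapping (log2 difference -0.06, SE 0.05, 95% interval -0.17 to 0.04, limma adjusted p = 0.472).

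The intermediate members had log2 differences above 0. Slfn3 was at 902, 927, 938 and 783 normalized counts in wild type and at 955, 927, 898 and 894 under the Morrbid-/- label (log2 difference 0.05, limma adjusted p = 0.694). Slfn4 was at 53.1, 43.0, 77.1 and 43.0 against 60.5, 63.2, 79.1 and 73.0, with wild-type replicate 3 among the Morrbid-/- values and the other 3 below them. Its log2 difference was 0.38 (SE 0.18, limma adjusted p = 0.202). Without wild-type replicate 3 it was 0.56 and passed (limma adjusted p = 0.0470), and without each other library the adjusted p was 0.191 to 0.411. Myeloid markers, which matter here because Slfn4 is known from myeloid cells, were near the floor. Of 9 such genes 2 were listed with IFN-beta, and their sum was 13.3 to 16.3 normalized counts in wild type and 17.4 to 35.0 under the Morrbid-/- label. Lyz2 and Csf1r, which define myeloid cells, were not in that table. The part of such cells in the Slfn4 values was not tested.

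**Figure D3:**
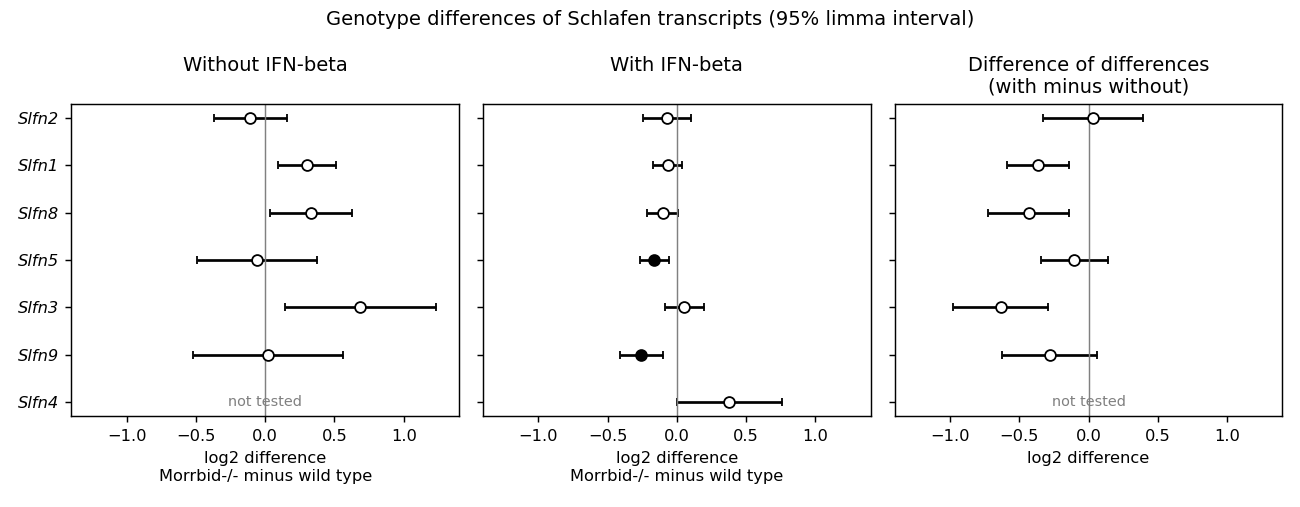
Log2 difference of each member (horizontal axis, Morrbid-/- minus wild type on normalized count + 1) without IFN-beta, with IFN-beta, and the difference of those differences; bars are 95% limma intervals and filled points passed at an adjusted p under 0.05. Only Slfn5 and Slfn9 with IFN-beta are filled, and both lie below 0.

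Some genes listed as markers of other cells or of the naive state differed by label in the same IFN-beta libraries. The CD4 and regulatory T cell list summed to 697 to 805 normalized counts in wild type and 869 to 1100 under the Morrbid-/- label. Of its tested genes 2 of 2 were higher, where 5.25% of all tested genes were. These were Ctla4, an inhibitory receptor (log2 difference 0.93, limma adjusted p = 7.98e-05), and Ikzf2, the transcription factor Helios (0.28, limma adjusted p = 0.0164). The defining genes Foxp3 and Cd40lg were at 2.05 to 9.16 and 2.05 to 10.1 normalized counts and Cd4 was not in the table. The 5 naive-state markers summed to 26492 to 27382 against 25788 to 28965, and 3 of them were higher: Ccr7, Lef1 and Tcf7. Their part in the Slfn5 and Slfn9 differences was not tested.

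The difference between the label's effect with and without IFN-beta was tested as an interaction over 9078 genes, of which 1.33% passed. Of the 6 members tested, 0 passed in the main limma fit, and 3 had an unadjusted p under 0.05, all with estimates below 0: Slfn1, Slfn3 and Slfn8. Over all genes tested 12% had such an unadjusted p. The result depended on the fit. When limma took same-numbered libraries as blocks, Slfn1 (adjusted p = 0.0219), Slfn3 (0.0178) and Slfn8 all passed, and no other member did. Whether such libraries belong together is not known. Slfn3 had the largest estimate, -0.63 (SE 0.17, 95% interval -0.98 to -0.29, limma adjusted p = 0.0563). The interaction fit assumes the same spread of a gene in both tables. Fitted apart, Slfn3 had an SE of 0.26 without IFN-beta and 0.07 with it. Its interaction SE and interval are therefore too narrow, and its adjusted p too small. The same holds for Slfn5, with SEs of 0.21 and 0.05 apart and 0.12 in the interaction. Leaving out one library brought Slfn3 under the threshold in 4 of 14 cases: without IFN-beta, wild-type replicate 1 (limma adjusted p = 0.0322), Morrbid-/- replicate 1 (0.0141) and Morrbid-/- replicate 3 (0.0439), and with it, wild-type replicate 4 (0.0426). Over all 14 it was 0.0141 to 0.195. Slfn8 was at -0.43 (SE 0.14, limma adjusted p = 0.151). Without wild-type replicate 2 of the libraries lacking IFN-beta, the one at 187 normalized counts, it was -0.63 (limma adjusted p = 0.000412), and over all 14 the adjusted p ran from that to 0.311. Slfn1 was at -0.36 (SE 0.11, limma adjusted p = 0.111). The estimates for Slfn9 (-0.28), Slfn5 (-0.10) and Slfn2 (0.03) had intervals that included 0. A fall of Slfn5 and Slfn9 particular to IFN-beta was therefore not shown.

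Slfn2 was next set against each interferon-induced member within the same library, as the log2 ratio of the member to Slfn2. Without IFN-beta the ratio of Slfn3 to Slfn2 was -5.36, -5.30 and -5.01 in wild type and -4.84, -4.14 and -4.32 under the Morrbid-/- label, on the log2 scale. The labels did not overlap, and the difference was 0.79 (95% limma interval 0.08 to 1.5). Slfn1 and Slfn8 had differences of 0.41 (95% interval -0.06 to 0.87) and 0.44 (-0.09 to 0.96) against Slfn2, with overlap. All ratios in the fit carry the same Slfn2 spread, so limma takes their spread as known. The limma intervals are therefore too narrow for 3 against 3 libraries, and that of Slfn3 does not establish a difference. None of the 5 ratios passed in limma (smallest adjusted p = 1.00, and for Slfn1 0.00398 to 1.00 over all settings run), where 0.388% of genes did, and 1 had an unadjusted p under 0.05, against 1.96% of genes. The exact two-sided permutation test gave p = 0.1 for Slfn3, the smallest that 3 against 3 libraries allow.

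With IFN-beta the differences of the members against Slfn2 were 0.45 for Slfn4, 0.13 for Slfn3, 0.01 for Slfn1, -0.03 for Slfn8, -0.09 for Slfn5 and -0.18 for Slfn9. None of the 6 passed in limma (smallest adjusted p = 0.431, for Slfn4), where 1.59% of genes did, and 1 had an unadjusted p under 0.05, against 10.6% of genes. Slfn4 passed only without wild-type replicate 3 (0.72, limma adjusted p = 0.0359, against 0.171 to 0.842 without each other library). Over 13 ratios in both settings, Slfn10-ps included, the smallest Benjamini-Hochberg value of the exact permutation tests was 0.65. Every ratio shares the library-to-library spread of Slfn2.

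That spread went along with the share of mitochondrial 16S ribosomal RNA (Rnr2), the largest single transcript of every library. This share was 11.6% to 18.9% of the recovered reads without IFN-beta and 9.05% to 12% with it. Across the 6 libraries without IFN-beta, Slfn2 correlated with it at Pearson's r = 0.88 (exact permutation p = 0.0333) and Spearman's rho = 0.77 (exact permutation p = 0.103). Across the 8 libraries with IFN-beta r was 0.75 (exact permutation p = 0.0269) and rho 0.71 (exact permutation p = 0.0576). Without the 2 libraries farthest from the median share, r was 0.89 and 0.88. Over the 14 relations computed for the 7 members, the Benjamini-Hochberg adjusted p of both r values was 0.233, so neither passed. Each label alone holds too few libraries for a correlation. The values share a library and its normalization, and their cause was not tested. With the 16S share as a covariate, an alternative chosen after seeing the data, the Slfn2 difference with IFN-beta changed sign, from -0.07 to 0.06 (limma adjusted p = 0.706).

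**Figure D4:**
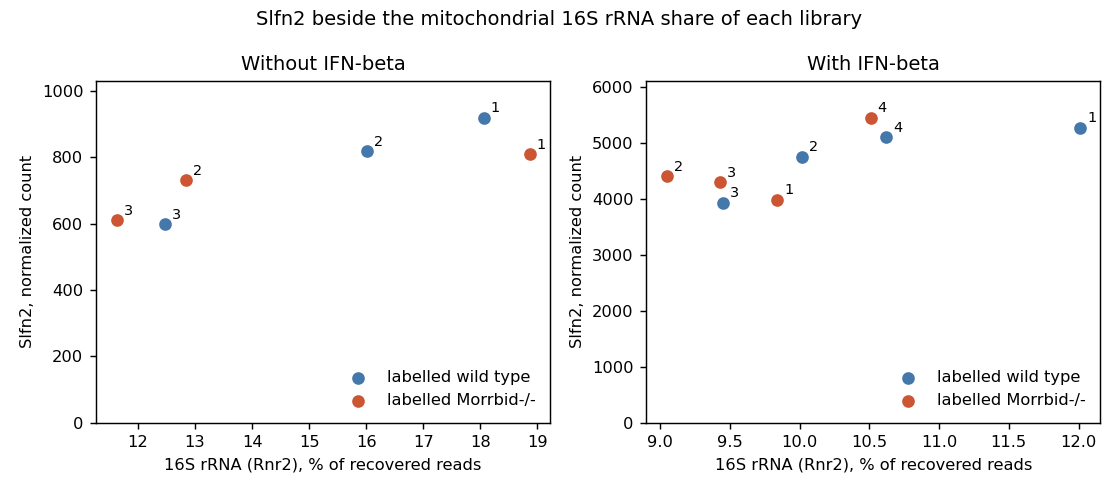
Slfn2 normalized count (vertical axis from 0) against the share of recovered reads in mitochondrial 16S rRNA (horizontal axis, %), without IFN-beta (left, 6 libraries) and with it (right, 8 libraries); numbers are replicate numbers. Without IFN-beta Slfn2 follows the order of the 16S share under both labels; with it this holds for wild type, while the Morrbid-/- library with the smallest share, at 4408, is above those with the next shares.

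The rest of the interferon pathway was described with lists chosen by gene function. Of 17 tested receptors, transducers and regulators, 4 were higher and 0 lower without IFN-beta (median log2 difference 0.21), where 0.538% of all tested genes were higher. Among them were Usp18, the brake on the receptor (1.34), Irf1 (0.60) and Irf9, the DNA-binding part of the ISRE complex (0.54), with limma adjusted p of 0.0283, 0.000779 and 0.0239. The receptor chains Ifnar1 (0.01) and Ifnar2 (0.01) did not pass. With IFN-beta 3 of 17 were higher and 1 lower (median 0.09), against 5.25% and 4.84% of all tested genes. These were Jak2 at 0.55, Irf7 at 0.33 and Irf2 at 0.21, against Irf1 at -0.19.

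Interferon-stimulated genes outside the family had a median log2 difference of 1.17 without IFN-beta. Of 22 genes 14 were tested, and 8 were higher and 0 lower, against 0.538% and 0.0969% of all genes tested. The leading examples were GTPases of cell-autonomous immunity: Iigp1 rose from a mean of 51.6 to 275 normalized counts (log2 difference 2.39, SE 0.15), Gbp2 from 190 to 667 (1.81, SE 0.12), Igtp from 273 to 658 (1.26, SE 0.11) and Irgm1 from 254 to 563 (1.14, SE 0.11). Genes below the mean of 10 were not tested, so the count leaves out the 8 lowest. Ifit3 (means of 7.48 and 40.6) and Oasl2 (6.33 and 14.99) reached that mean only through the Morrbid-/- libraries. Of the other 12, 7 were higher and 0 lower, with a median of 1.07. With IFN-beta 6 of 22 were higher and 3 lower in limma and edgeR (median 0.07), and 6 and 5 in DESeq2, with Ifi44 at 0.88 and Iigp1 at 0.42 against Gbp2 at -0.37 and Ifit1 at -0.38. In the interaction 9 of 14 had estimates below 0 that passed and 0 above, or 7 of 12 without Ifit3 and Oasl2, where 0.892% of all genes passed below 0. Whether these genes differed in this from the Schlafen members was not tested. The interaction fit assumes the same spread in both tables, so its SE is too small for genes more variable without IFN-beta. For Oasl2 it was 0.27, against 0.43 for the difference without IFN-beta alone. The dendritic and NK cell marker sums given above, mostly Ccr9 and Klrd1, did not overlap and come from the same libraries without IFN-beta.

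Regulators of T cell quiescence, the process Slfn2 is tied to, had no call without IFN-beta, with 0 of 20 tested higher or lower in limma (median -0.09), and edgeR and DESeq2 also called 0. At an unadjusted p under 0.05 there were 2, against 6.12% of all tested genes. Those with the smallest p were the cell cycle inhibitor Cdkn1b (-0.31) and the survival receptor Il7r (-0.30). With IFN-beta 6 of 21 were higher and 0 lower (median 0.17), where 5.25% and 4.84% of all tested genes were. Among them were the naive-state factors Lef1 (0.52, limma adjusted p = 7.59e-05) and Tcf7 (0.41, limma adjusted p = 0.000105), the antiproliferative Tob2 (0.61, limma adjusted p = 0.000961) and the ubiquitin ligase Cblb (0.27, limma adjusted p = 0.00430). Cdkn1b was also among the genes higher with IFN-beta (0.32, limma adjusted p = 0.0301). In the interaction 4 of 20 passed with estimates above 0 and 0 below, where 1.33% of all genes passed. These were Lef1 (0.60), Tcf7 (0.52), Tob2 (0.76) and Cdkn1b (0.64, limma adjusted p = 0.0420). Slfn2 was not among the genes that passed in either setting.

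Genes of activation and entry into the cell cycle, the converse of quiescence, had 0 calls among 18 tested in each setting (medians 0.04 and -0.04), by limma, edgeR and DESeq2 alike. In limma 3 of them without IFN-beta and 4 with it had an unadjusted p under 0.05, against 6.12% and 24.4% of all tested genes. Their smallest p-values belonged to Myc (0.41) and Ccnd2 (0.29) without IFN-beta and to Irf4 (-0.53) and Myc (0.35) with it. Of 11 tested genes of transfer RNA protection and stress sensing, 0 passed without IFN-beta in limma, edgeR or DESeq2. At an unadjusted limma p under 0.05 there were 2, against 6.12% of all tested genes. With IFN-beta 2 were higher and 0 lower, against 5.25% and 4.84% of all tested genes. These were Ppp1r15a, which restarts translation after stress (0.60, limma adjusted p = 9.09e-05), and the stress transcription factor Atf4 (0.28, limma adjusted p = 0.0196). In the interaction 1 of the 11 passed, Eif2ak2 (-0.37, limma adjusted p = 0.0394), where 1.33% of all genes did. There 5 had an unadjusted p under 0.05, against 12% of all genes.

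The genes that flank the Schlafen cluster showed no call. Rffl, Rad51d and Nle1 on one side and AI450353 on the other were tested in both settings, and 0 passed in limma, edgeR or DESeq2, also at an unadjusted p under 0.05, while AA465934 was too low to test. The largest difference among them was -0.65 (SE 0.35, limma adjusted p = 0.861), for AI450353 without IFN-beta. In the interaction 0 of the 5 flanking genes tested passed. There 1 had an unadjusted limma p under 0.05, with an estimate below 0, against 12% of all genes.

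Last, the genes most like the members were ranked by Pearson's r over the 14 libraries after centring each table, among the 5758 genes whose mean reached 50 in each table, as a description. Slfn1, Slfn2 and Slfn8 were high enough for this. Slfn1 varied most like Trim30a (r = 0.90), Herc6 (0.88) and Gm1966 (0.88), and Slfn8 most like Ddx60 (0.85), Kbtbd11 (0.85) and Rbl1 (0.85). Slfn2 varied most like Paip2 (0.94), Rpl35 (0.93) and Cd3g (0.92). Slfn1 and Slfn8 correlated at 0.73, while Slfn2 correlated with them at 0.15 and 0.19. These points share libraries, depth and normalization.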

How the data were processed

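Total RNA of stimulated naive CD8 T cells was measured in 14 libraries, grouped by their titles. Per the submitters' processing notes, the tools were Trimmomatic, STAR 2.5, featureCounts and DESeq2, and GRCm38 and mm10 were the builds. No source used here gives the annotation release or the strand setting. The authors deposited normalized counts, handled here as a signal, in 1 table per stimulation. Dividing by the step of each library gave whole reads, within 0.01, for 100% of values. Rows with no symbol (222 and 138) stayed in the totals and tests. Replicates differed beyond sampling noise (chi-square divided by its degrees of freedom 1.88 to 9.23).

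The labels were compared inside each table by limma 3.58.1 (R 4.3.3), with a trend in the variance, on log2 of the normalized count plus 1, which understates changes of low genes. Genes were tested from a mean of 10 normalized counts over the libraries of a table upward, except Morrbid, which was kept below that mean. Benjamini-Hochberg adjustment ran over all genes tested, at 0.05. Ratios to Slfn2 were fitted alike. The interaction and the one fit of all libraries gave a gene the same spread in both tables. Alternatives were pseudocounts of 0.5 and 5, other filters (none, or a mean of 50), equal totals, TMM, no trend, a replicate block, one fit of all libraries, omission of each library in turn, and edgeR 4.0.16 and DESeq2 1.42.0 on recovered reads. The 16S covariate and the exact permutation tests were added after seeing the data. The fit inside each table was run on simulated counts with changes larger than the member differences that passed. Small changes, changes of low genes, and the interaction and ratio fits were not simulated. Members and lists were chosen with earlier results of these data known. The genes named were all Slfn rows, Morrbid, up to 4 passing genes of a list or else the 2 with the smallest p, the 3 nearest genes on each side of the cluster, and the 3 most similar genes of each well-measured member. Ifnar1, Ifnar2, Ifit3, Oasl2 and the markers were added after their values were seen. Some genes that met these rules are not reported here, though they stay in all counts.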

Additional observations from a re-analysis of the deposited data

How the results depend on the processing

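Other pseudocounts, TMM, edgeR and DESeq2, where run, changed no call and no direction of a member. With IFN-beta Slfn5 no longer passed with no filter (-0.16, limma adjusted p = 0.0908), equal totals (-0.12, 0.120), no trend (-0.16, 0.179), the 16S covariate (-0.15, 0.0669) or one fit of all libraries (-0.16, 0.228). Slfn9 no longer passed with equal totals (-0.22, limma adjusted p = 0.0689), no trend (-0.26, 0.181) or one fit (-0.26, 0.178). Slfn2 with IFN-beta turned to 0.058 with the 16S covariate. In one fit of all libraries, Slfn3 (0.69, limma adjusted p = 0.00167) and Slfn10-ps (-0.41, 0.0321) passed without IFN-beta. The causes were not tested.

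Counts of genes higher and lower without IFN-beta were 13 and 4 with no trend and 101 and 16 in one fit; the number lower was 5 from a mean of 50 and 32 with the 16S covariate. With IFN-beta they were 171 and 134 with no trend and 301 and 253 in one fit, and in the interaction 15 and 51 with no trend.

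The labels do not say whether same-numbered libraries belong together, and the main fits treat them as unpaired. Their deviations correlated at 0.38, -0.02 and 0.30 without IFN-beta and at 0.07, 0.03, 0.13 and 0.24 with it. Wild-type replicate 2 without IFN-beta correlated best with Morrbid-/- replicate 3 (0.08), and every other wild-type library with its own number. Morrbid-/- replicate 2 without IFN-beta and replicate 1 with it correlated best with wild-type replicate 3 (0.08 each). With the replicate block, Slfn1 passed without IFN-beta (0.30, limma adjusted p = 0.0186), as did its ratio to Slfn2 (0.41, 0.00398) and the interactions of Slfn1 (-0.36, 0.0219), Slfn3 (-0.63, 0.0178) and Slfn8 (-0.43, 0.0213). Slfn5 and Slfn9 with IFN-beta stayed called (0.00879 and 0.00492), and no other member's call changed. Counts higher and lower were 94 and 75 without IFN-beta, 730 and 691 with it, and 148 and 163 in the interaction.

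Leaving out each library in turn gave these ranges of the log2 difference. Without IFN-beta they were 0.20 to 0.36 for Slfn1, 0.21 to 0.53 for Slfn8, -0.28 to 0.025 for Slfn2, -0.16 to 0.068 for Slfn5 and -0.093 to 0.19 for Slfn9. With IFN-beta they were -0.083 to -0.040 for Slfn1, -0.104 to -0.051 for Slfn10-ps, -0.16 to -0.013 for Slfn2 (the ends without Morrbid-/- replicates 4 and 1), -0.0057 to 0.081 for Slfn3, 0.29 to 0.56 for Slfn4, -0.18 to -0.14 for Slfn5 and -0.32 to -0.18 for Slfn9. In the interaction they were -0.097 to 0.21 for Slfn2, -0.75 to -0.47 for Slfn3, -0.23 to 0.0012 for Slfn5, -0.44 to -0.16 for Slfn9 (the ends without Morrbid-/- replicates 2 and 1 of the libraries lacking IFN-beta) and -0.63 to -0.32 for Slfn8. Against Slfn2 they were -0.19 to 0.20 for Slfn5, 0.23 to 0.59 for Slfn8, -0.029 to 0.31 for Slfn9 and -0.45 to -0.072 for Slfn10-ps without IFN-beta, and with it -0.052 to 0.095 for Slfn1, -0.083 to 0.091 for Slfn10-ps, 0.030 to 0.24 for Slfn3 (the ends without wild-type replicates 4 and 3), 0.32 to 0.72 for Slfn4, -0.15 to -0.0024 for Slfn5, -0.085 to 0.068 for Slfn8 and -0.30 to -0.080 for Slfn9. Numbers of genes higher and lower were 31 to 52 and 6 to 19 without IFN-beta, 321 to 553 and 288 to 466 with it, and 24 to 47 and 71 to 97 in the interaction. The lowest numbers with IFN-beta came without Morrbid-/- replicate 2.

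Depth limits Slfn3, Slfn4 and Slfn9 most without IFN-beta, where single libraries held 1 to 32 reads of these genes.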
